A study of Mus musculus with 20 samples.

Results

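A set of 9 genes of the hepatic insulin pathway was followed across 20 mouse liver libraries: the insulin receptor Insr, the adaptors Irs1 and Irs2, the PI3-kinase regulatory subunit Pik3r1, the kinases Akt1 and Akt2, the transcription factor Foxo3, and the IGF-binding proteins Igfbp1 and Igfbp2. They were taken by name from a list that uses no expression threshold, drawn up with earlier results of these data known, and are 9 of the 55359 gene identifiers counted. All 9 were among the 14428 genes tested, and the lowest count of any of them in any library was 104. On GRCm39 the signalling genes lie at chr8:3172061-3329617 (Insr, minus strand), chr1:82210822-82269137 (Irs1, minus), chr8:11034681-11058458 (Irs2, minus), chr13:101817071-101904725 (Pik3r1, minus), chr12:112620255-112641318 (Akt1, minus), chr7:27290977-27340251 (Akt2, plus) and chr10:42057837-42152751 (Foxo3, minus). Igfbp1 lies at chr11:7147782-7152546 and Igfbp2 at chr1:72863662-72891633, both on the plus strand.

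Insulin binds its receptor on the hepatocyte, and the receptor kinase phosphorylates the IRS adaptors, which recruit PI3-kinase through its p85 subunit. AKT is then activated and phosphorylates FOXO factors, which leave the nucleus, so that genes they drive fall silent. Igfbp1 and Irs2 are known FOXO targets that insulin represses in liver, while IRS1, PI3-kinase and AKT are regulated largely by phosphorylation, which RNA counts do not show. IGFBP1 and IGFBP2 are secreted proteins that bind insulin-like growth factors.

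The livers came from male wild-type mice of a strain spelled C56BL/6 in the labels, all 35 weeks old. Every mouse, the normal-diet controls included, had received 50 µL of 0.5% DMBA (7,12-dimethylbenz(a)anthracene, a carcinogen) in acetone on the back at postnatal day 4 to 5. The 5 groups of 4 libraries were tumor tissue of exercised mice fed a high-fat diet with 60 kcal% fat, tumor tissue of non-exercised high-fat mice, non-tumor tissue of exercised high-fat mice, non-tumor tissue of non-exercised high-fat mice, and liver of normal-diet mice (12 kcal% fat) that did not exercise. High-fat mice were obese, above 45 g, and were split into the arms at 20 weeks of age. Treadmill training lasted 5 weeks and started at 10 m/min; the final 10 weeks were run at 18 m/min, 20 min per session, 5 sessions weekly. Exercised and non-exercised mice were killed on a shared day within 2 h of the last run, so training and a recent session cannot be told apart. The sources used here give no feeding state, clock time or sampling day of the normal-diet mice. The 2 diets also differ in protein and carbohydrate, and obesity comes with the high-fat diet, so these cannot be told apart. Titles number the mice 1 to 4 in each group, and within an arm a tumor and a non-tumor piece of the same number were taken to come from the same mouse.

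Libraries held 16471378 to 20271948 counts. All 9 hepatocyte markers were detected in every group. Levels are given as CPM, the usual counts-per-library-size unit of RNA-seq, on TMM-scaled library sizes. Sums of cell markers and the limit for Ins1 and Ins2 use total counts without that scaling. The summed level of the hepatocyte markers was 140172 to 196481 CPM in tumors of exercised mice and 123784 to 200598 CPM in tumors of non-exercised mice. It was 86468 to 104564 CPM in exercised non-tumor liver, 69612 to 96223 CPM in non-exercised non-tumor liver and 87373 to 94771 CPM on the normal diet. Albumin alone took 9.05% to 15.9% of counts in tumors and 4.06% to 7.36% in the other libraries. The insulin genes Ins1 and Ins2 had 0 counts in all 20 libraries, which allows up to 0.148 to 0.182 CPM in a library (3 counts, counting error only). In bulk tissue, fewer cells of a type and less RNA per cell cannot be told apart.

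Igfbp1 and Irs2 are the 2 genes of the set best known as insulin-repressed, and their promoters are shown with that of Irs1, the adaptor that did not pass with diet. The windows are from RefSeq (build GRCm38.p6, 250 bases before to 50 after the start; the counts are on GRCm39), and 8 of the 9 genes had an entry. Letters searched on both strands were the insulin response element parts CAAAACA and TATTTTG and the forkhead core TGTTT and full site GTAAACA. Capitals mark every match; a CAAAACA match read from the other strand appears as TGTTTTG and always contains a TGTTT. The windows lie at chr11:7197537-7197836 (plus strand), chr8:11008880-11009179 (minus strand) and chr1:82291390-82291689 (minus strand), and each is written 5′ to 3′ in the direction of its gene.
Igfbp1: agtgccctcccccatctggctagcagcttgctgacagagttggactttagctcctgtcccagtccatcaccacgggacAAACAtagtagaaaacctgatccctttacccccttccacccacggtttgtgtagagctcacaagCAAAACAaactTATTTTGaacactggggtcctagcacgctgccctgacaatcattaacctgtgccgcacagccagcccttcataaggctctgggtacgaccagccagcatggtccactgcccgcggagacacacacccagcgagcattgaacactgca
Irs2: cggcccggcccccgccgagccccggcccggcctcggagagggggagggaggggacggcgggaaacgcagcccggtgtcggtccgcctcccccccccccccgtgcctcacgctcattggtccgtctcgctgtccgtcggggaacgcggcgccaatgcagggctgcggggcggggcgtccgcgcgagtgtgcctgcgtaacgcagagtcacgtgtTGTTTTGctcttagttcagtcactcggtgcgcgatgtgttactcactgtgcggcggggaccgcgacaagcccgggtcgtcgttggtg
Irs1: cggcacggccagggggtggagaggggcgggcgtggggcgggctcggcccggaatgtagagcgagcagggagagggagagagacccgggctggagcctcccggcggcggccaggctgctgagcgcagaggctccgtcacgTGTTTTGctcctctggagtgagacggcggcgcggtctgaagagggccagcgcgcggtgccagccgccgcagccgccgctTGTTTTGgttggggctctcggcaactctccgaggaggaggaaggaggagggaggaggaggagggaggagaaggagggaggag
The Igfbp1 window holds CAAAACA beginning 108 bases before the start and TATTTTG beginning 97 bases before it, on the strand of the gene. Both together occur in 0.472% of 32851 promoter windows of the same length; CAAAACA, with or without the other, is in 6.28%, TATTTTG in 4.36%, GTAAACA in 3.65% and TGTTT in 50.5%. The Irs2 window has 1 CAAAACA match, on the other strand and 37 bases before the start, and the Irs1 window has 2, at 111 and 32 bases before it. The Foxo3 window has none of these letters, and those of Igfbp2 hold TGTTT only. These matches describe the letters of a window and do not show a site in use.

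Levels of the genes span a wide range. Per kilobase of exon, Igfbp1 averaged 402 CPM over the 20 libraries and Igfbp2 87.9 CPM, well above the signalling genes. Akt1 followed at 13.2, Insr at 9.73, Akt2 at 8.88, Pik3r1 at 8.32 and Foxo3 at 7.19 CPM per kilobase. The adaptors were lowest, Irs2 at 4.60 and Irs1 at 2.47 CPM per kilobase. The genes also differed in how much their group means varied: the highest group mean was 13.5 times the lowest for Igfbp1, 6.40 times for Igfbp2 and 4.68 times for Irs2. For Foxo3 it was 2.47 times, for Irs1 1.83, for Pik3r1 1.59, for Insr 1.37, for Akt2 1.30 and for Akt1 1.14 times. With the 5 group means of each gene put in order, ranges of neighbouring groups overlapped in all but 3 places: below the normal diet, which was highest, for Irs2 and Igfbp2, and between the normal diet and the next lower group, non-exercised non-tumor liver, for Igfbp1.

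**Figure D1:**
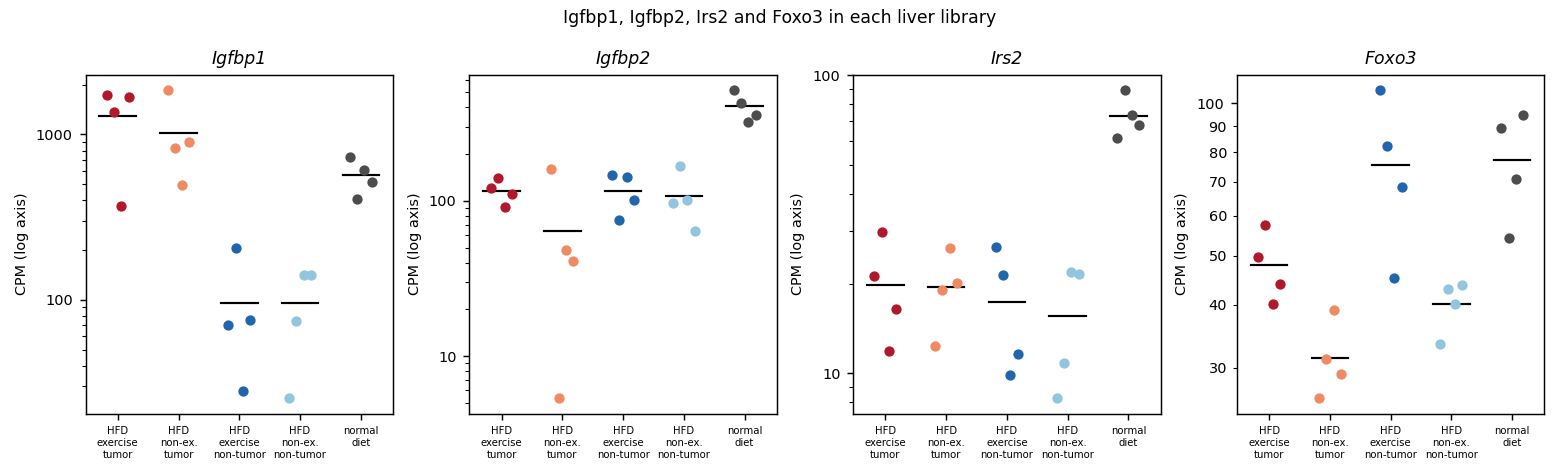
Level in CPM (log axis) of Igfbp1, Igfbp2, Irs2 and Foxo3 in each library; each point is 1 library and each bar the mean of a group of 4. The normal-diet libraries stand above all other libraries for Irs2 (61.6 to 89.3 CPM) and Igfbp2 (323 to 519 CPM), and tumors stand above non-tumor pieces for Igfbp1.

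High-fat feeding was compared with the normal diet in non-exercised, non-tumor liver. Irs2, Igfbp1, Igfbp2 and Foxo3 fell, and the receptor, Irs1, Pik3r1 and both AKT genes did not pass the test. Of the 9 genes, 4 were called lower and 0 higher at an adjusted p under 0.05 (edgeR), where 25.9% of all genes tested were called, 14% higher and 11.9% lower. The groups did not overlap for 5 of the 9 genes, against 33.1% of all genes. The median log2 fold change of the 9 genes was -0.24, and that of all genes 0.01.

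Irs2, the adaptor whose transcript insulin represses, had 8.24, 10.8, 21.8 and 21.5 CPM in high-fat livers, against 61.6, 89.3, 73.7 and 67.9 CPM in normal-diet livers. Every high-fat value lay below every normal-diet value. The mean was 15.6 ± 7.10 CPM on the high-fat diet and 73.1 ± 11.9 CPM on the normal diet (SD, n = 4 each). Irs2 fell by 2.22 on the log2 scale (SE 0.37), or 4.67-fold, with an edgeR adjusted p of 0.000645.

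Its relative Irs1 did not follow. Irs1 had 30.6, 32.1, 21.1 and 33.4 CPM in high-fat livers, against 26.7, 25.3, 28.5 and 29.6 CPM in normal-diet livers. The groups overlapped, with a log2 difference of 0.09 ± 0.29 (SE; edgeR adjusted p = 0.843). Per length, the ratio of Irs2 to Irs1 was 0.827 ± 0.505 in high-fat livers and 3.87 ± 0.844 in normal-diet livers (SD, n = 4 each), so the adaptor of higher level differed between the diets on average.

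Igfbp1, the secreted IGF-binding protein whose gene insulin switches off, had 25.4, 74.5, 142 and 141 CPM in high-fat livers, against 726, 409, 609.7 and 517 CPM in normal-diet livers. The lowest normal-diet library was above the highest high-fat library. Igfbp1 fell by 2.56 on the log2 scale (SE 0.63), or 5.90-fold, with an edgeR adjusted p of 0.00767. Igfbp2, a binding protein whose liver level is known to be low in obesity, had 97.0, 169, 101 and 64.2 CPM in high-fat livers, against 519, 430.5, 323 and 359.7 CPM in normal-diet livers. Its groups were also apart. Igfbp2 fell by 1.92 on the log2 scale (SE 0.59; edgeR adjusted p = 0.0242). That call was lost when any 1 of 4 libraries was left out: without non-exercised non-tumor replicate 1, 3 or 4 the adjusted p was 0.0592, 0.0597 and 0.0743, and without normal-diet replicate 1 it was 0.0538.

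Foxo3, a forkhead factor held in the cytoplasm by AKT, had 33.5, 42.9, 40.1 and 43.7 CPM in high-fat livers, against 89.5, 54.2, 71.0 and 95.0 CPM in normal-diet livers. All 4 high-fat values were below all normal-diet values. Foxo3 fell by 0.95 on the log2 scale (SE 0.22), or 1.93-fold, with an edgeR adjusted p of 0.00446. Calls of Irs2, Igfbp1 and Foxo3 held in every alternative tried, with log2 changes of -2.43 to -2.02, -2.83 to -2.25 and -1.10 to -0.85.

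Insr, the receptor, had 101, 120.3, 108 and 124 CPM in high-fat livers, against 131, 148, 131 and 127 CPM in normal-diet livers. The groups did not overlap, yet the log2 difference of -0.24 ± 0.12 (SE) did not pass (edgeR adjusted p = 0.127). Pik3r1 differed by 0.11 ± 0.15, Akt1 by -0.12 ± 0.10 and Akt2 by -0.10 ± 0.08 on the log2 scale (SE), with edgeR adjusted p of 0.638, 0.368 and 0.361. Pik3r1 averaged 89.5 ± 8.67 CPM in high-fat livers and 83.1 ± 17.4 CPM in normal-diet livers. Akt1 averaged 52.7 ± 3.04 CPM in high-fat and 57.4 ± 8.06 CPM in normal-diet livers, and Akt2 65.7 ± 2.97 CPM in high-fat and 70.4 ± 3.93 CPM in normal-diet livers (SD, n = 4 each).

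Some markers of other cells were called with diet, where 25.9% of all genes were called. Of 8 macrophage markers 7 were called higher on the high-fat diet and 0 lower, and their summed level was 305 to 468 CPM in high-fat livers and 170 to 231 CPM in normal-diet livers. Of 9 hepatocyte markers 4 were called lower and 0 higher. Of 5 endothelial markers 2 were called lower, and of 3 B cell markers 1, with 0 higher. Of 6 stellate markers 2 were called higher and 0 lower. No marker of T and NK cells, neutrophils or cholangiocytes was called. The part of these markers in the changes of Irs2, Igfbp1, Igfbp2 and Foxo3 was not tested. With upper-quartile scaling 68.8% of all diet calls were higher, against 54.1% with the scaling used here; the direction of the 4 called genes was the same under both.

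**Figure D2:**
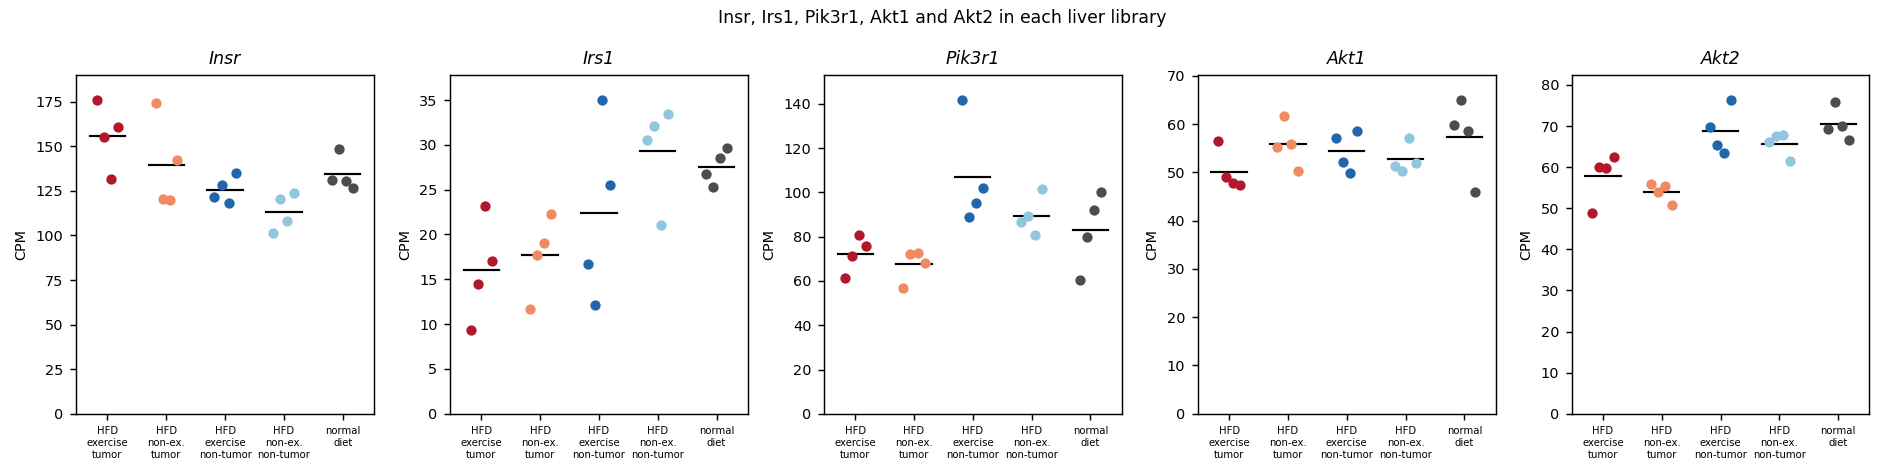
Level in CPM of Insr, Irs1, Pik3r1, Akt1 and Akt2 in each library; each point is 1 library and each bar the mean of a group of 4. Akt2 is lower in all tumor libraries of non-exercised mice (50.8 to 55.8 CPM) than in their non-tumor libraries (61.4 to 67.7 CPM), and Akt1 differs little between groups.

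Tumor tissue was compared with non-tumor tissue within each high-fat arm. Igfbp1 rose in tumors of both arms, 13.5-fold in exercised and 10.7-fold in non-exercised mice, and Pik3r1 and Akt2 fell in both. Insr rose and Foxo3 fell in exercised mice; in non-exercised mice neither passed. In exercised mice 2 of the 9 genes were called higher and 3 lower (edgeR), where 34.6% of all genes tested were called, 18.6% higher and 16% lower. In non-exercised mice 1 was called higher and 2 lower, where 35.8% were called, 18% higher and 17.8% lower. No gene of the 9 passed the test of a difference between the arms (interaction, given with exercise). Groups did not overlap for 3 of the 9 genes in each arm, against 28.6% of all genes in exercised and 34.8% in non-exercised mice. The median log2 difference of the 9 genes was -0.12 in exercised and -0.28 in non-exercised mice, and that of all genes 0.01 in exercised and -0.01 in non-exercised mice.

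Igfbp1 had 1729.8, 1376, 369.7 and 1674 CPM in tumors of exercised mice, against 70.5, 206, 28.2 and 75.4 CPM in their non-tumor pieces. In non-exercised mice it had 1859, 829, 496 and 903 CPM in tumors, against 25.4, 74.5, 142 and 141 CPM in non-tumor pieces. Tumors and non-tumor pieces were apart in both arms, so the tumor was higher in all 8 numbered mice under any pairing. The tumor to non-tumor ratio of a mouse was 6.67 to 24.5 in the exercised arm and 3.50 to 73.3 in the non-exercised arm. The log2 fold change was 3.76 ± 0.66 in exercised and 3.42 ± 0.65 in non-exercised mice (SE), with edgeR adjusted p of 0.000678 and 0.0009. Without exercised non-tumor replicate 2, the highest of its group, the exercised value was 4.45.

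Mean Igfbp1 in tumors was above that in livers on the normal diet. It averaged 1287 ± 631 CPM in tumors of exercised mice, 1022 ± 586 CPM in tumors of non-exercised mice and 566 ± 135 CPM on the normal diet (SD, n = 4 each). The ranges overlapped, and this difference was not tested. Irs2 showed no such pattern: it had 21.2, 29.7, 11.9 and 16.5 CPM in tumors of exercised mice, against 26.6, 21.4, 9.88 and 11.6 CPM in their non-tumor pieces. In non-exercised mice Irs2 had 12.4, 18.98, 26.3 and 20.1 CPM in tumors, against 8.24, 10.8, 21.8 and 21.5 CPM in non-tumor pieces. All 16 high-fat libraries lay below all 4 normal-diet libraries for Irs2. The tumor log2 differences of Irs2 were 0.19 ± 0.36 in exercised and 0.31 ± 0.36 in non-exercised mice (SE; edgeR adjusted p = 0.716 and 0.527).

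Igfbp2 did not pass in either arm. It had 121, 141, 90.7 and 111 CPM in tumors of exercised mice, against 147, 75.4, 143 and 101 CPM in their non-tumor pieces, and 160.2, 5.34, 48.3 and 41.1 CPM in tumors of non-exercised mice, against 97.0, 169, 101 and 64.2 CPM in their non-tumor pieces. The tumors of non-exercised mice were the most spread, with replicate 1 high and replicate 2 low. The log2 differences were -0.01 ± 0.57 in exercised and -0.76 ± 0.58 in non-exercised mice (SE; edgeR adjusted p = 0.994 and 0.323). Without replicate 1 of the non-exercised tumors the difference was -1.75 with an adjusted p of 0.0197. Per length, Igfbp2 relative to Igfbp1 stood at 0.0999 ± 0.0697 in tumors of exercised mice and 1.83 ± 1.68 in their non-tumor pieces, and at 0.0486 ± 0.0342 in tumors of non-exercised mice and 1.498 ± 1.29 in their non-tumor pieces (SD, n = 4 each).

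Pik3r1, the p85 subunit that carries the catalytic p110 to the IRS proteins, had 61.4, 71.4, 80.6 and 76.0 CPM in tumors of exercised mice, against 142, 89.0, 95.2 and 102 CPM in non-tumor pieces. In non-exercised mice it had 56.7, 72.3, 72.7 and 68.1 CPM in tumors, against 86.8, 89.2, 80.7 and 101 CPM in non-tumor pieces. The tumors were lower throughout, without overlap in either arm, and so in all 8 mice under any pairing. Pik3r1 fell by 0.56 on the log2 scale in exercised (SE 0.15; edgeR adjusted p = 0.0094) and by 0.41 in non-exercised mice (SE 0.15; adjusted p = 0.0467). With the mouse as a block in edgeR the non-exercised value was -0.41 with an adjusted p of 0.0626. In limma-voom, which also blocked on the mouse, the non-exercised call was kept. The call of Pik3r1 in non-exercised mice was also lost when any library of the 2 groups but tumor replicate 3 was left out (adjusted p 0.0519 to 0.183).

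Akt2, the AKT isoform best known for glucose control, had 48.8, 60.0, 59.7 and 62.5 CPM in tumors of exercised mice, against 69.8, 65.3, 63.4 and 76.4 CPM in their non-tumor pieces. Tumors of non-exercised mice had 55.8, 53.9, 55.4 and 50.8 CPM, against 66.0, 67.5, 67.7 and 61.4 CPM in non-tumor pieces. No tumor reached the level of any non-tumor piece of its arm. Akt2 fell by 0.25 in exercised (SE 0.08; edgeR adjusted p = 0.0209) and fell by 0.28 in non-exercised mice (SE 0.08; adjusted p = 0.0103) on the log2 scale. The exercised call was lost without non-tumor replicate 4 (0.0773) or tumor replicate 1 (0.0777), and the non-exercised call without tumor replicate 4 (0.0544). Akt1, its close relative, averaged 50.2 ± 4.27 CPM in tumors and 54.4 ± 4.14 CPM in non-tumor pieces of exercised mice, and 55.9 ± 4.64 CPM in tumors and 52.7 ± 3.04 CPM in non-tumor pieces of non-exercised mice (SD, n = 4 each). Its log2 differences were -0.12 ± 0.10 in exercised and 0.08 ± 0.10 in non-exercised mice (SE; edgeR adjusted p = 0.37 and 0.533).

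Insr had 176, 155, 132 and 161 CPM in tumors of exercised mice, against 121, 128, 118 and 135 CPM in non-tumor pieces. Non-exercised tumors had 175, 121, 120.1 and 142 CPM, against 101, 120.3, 108 and 124 CPM in non-tumor pieces. The groups overlapped in both arms, though the tumor was higher in each of the 8 mice, with ratios of 1.11 to 1.45 in exercised and 1.003 to 1.72 in non-exercised mice. Insr rose by 0.31 on the log2 scale in exercised mice (SE 0.12; edgeR adjusted p = 0.0452), and the difference in non-exercised mice was 0.30 ± 0.12 (SE; adjusted p = 0.0525). With the mouse as a block in edgeR the exercised value was 0.30 with an adjusted p of 0.0924. In limma-voom, which also blocked on the mouse, the exercised call was kept. Leaving out any library of the 2 exercised groups but tumor replicate 3 gave an edgeR adjusted p of 0.0554 to 0.141. The non-exercised difference passed with RLE or upper-quartile scaling, DESeq2 and limma-voom (adjusted p 0.0377, 0.0459, 0.0232 and 0.0355) and with a filter of 1 CPM in 4 libraries (0.0449). It also passed without non-exercised non-tumor replicate 4 (0.042), tumor replicate 2 (0.0312) or tumor replicate 3 (0.0216).

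Foxo3 had 49.8, 57.6, 40.0 and 43.9 CPM in tumors of exercised mice, against 106, 82.2, 45.1 and 68.2 CPM in non-tumor pieces. In non-exercised mice it had 26.1, 31.2, 39.0 and 29.2 CPM in tumors, against 33.5, 42.9, 40.1 and 43.7 CPM in non-tumor pieces. The groups overlapped in both arms, and the tumor piece was lower in each of the 8 mice. Foxo3 fell by 0.66 on the log2 scale in exercised mice (SE 0.22; edgeR adjusted p = 0.025), while the non-exercised difference was -0.35 ± 0.22 (SE; adjusted p = 0.218). The exercised call was lost without non-tumor replicate 1 (0.112), tumor replicate 3 (0.0534) or tumor replicate 4 (0.0584).

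Irs1 averaged 16.02 ± 5.74 CPM in tumors and 22.4 ± 10.1 CPM in non-tumor pieces of exercised mice, and 17.7 ± 4.41 CPM in tumors and 29.3 ± 5.58 CPM in non-tumor pieces of non-exercised mice (SD, n = 4 each). The log2 differences were -0.48 ± 0.29 in exercised and -0.72 ± 0.29 in non-exercised mice (SE; edgeR adjusted p = 0.216 and 0.0587), and with the mouse as a block the non-exercised value was -0.74 with an adjusted p of 0.0251. The non-exercised difference also passed with DESeq2 (0.0421), limma-voom (0.0268), a fit of only the groups compared (0.027) and without non-exercised non-tumor replicate 3 (0.0423). Irs1 was lower in the tumor of 3 of 4 exercised and 4 of 4 non-exercised mice.

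**Figure D3:**
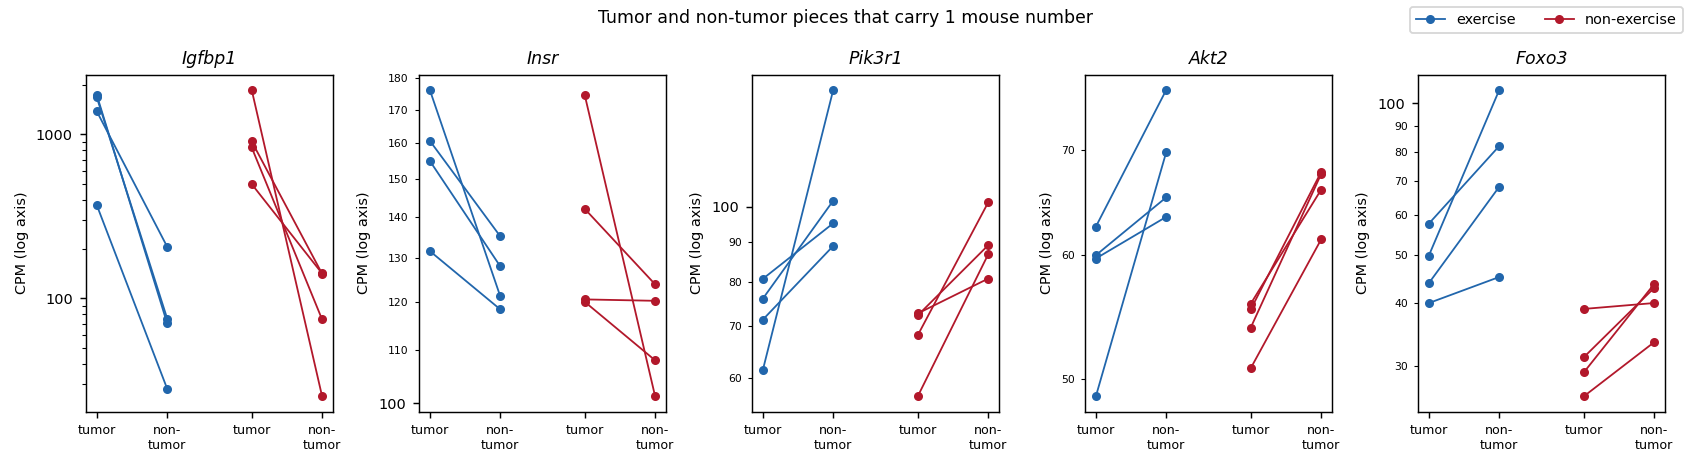
CPM (log axis) of Igfbp1, Insr, Pik3r1, Akt2 and Foxo3 in tumor and non-tumor pieces; each line joins the pieces that carry 1 mouse number, blue for exercised and red for non-exercised mice. Igfbp1 and Insr are higher and Pik3r1, Akt2 and Foxo3 lower in the tumor piece of all 8 mice. For Igfbp1, Pik3r1 and Akt2 this holds under any pairing, since the groups of an arm do not overlap.

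Some markers of other cells were called in the tumor comparison, where 34.6% of all genes were called in exercised and 35.8% in non-exercised mice. Of 5 cholangiocyte markers 2 were called higher and 0 lower in exercised mice, and 2 higher and 1 lower in non-exercised mice. The 5 cholangiocyte markers summed to 96.6 to 1220 CPM in tumors and 41.0 to 125 CPM in non-tumor pieces of exercised mice, and to 422 to 1318 CPM in tumors and 47.2 to 203 CPM in non-tumor pieces of non-exercised mice. Of 8 macrophage markers 0 were called higher and 1 lower in each arm. Macrophage markers summed to 145 to 315 CPM in tumors and 323 to 368 CPM in non-tumor pieces of exercised mice, and to 128 to 521 CPM in tumors and 305 to 468 CPM in non-tumor pieces of non-exercised mice, where the ranges overlapped. Of 5 endothelial markers 2 were called higher in exercised and 1 in non-exercised mice, and of 6 stellate markers 1 in each arm, with 0 lower. Of 9 hepatocyte markers 2 were called higher and 2 lower in exercised mice, and 2 higher and 3 lower in non-exercised mice. Mitochondrial genes took 2.56% to 4.5% of counts in tumors and 4.54% to 5.99% in the other libraries. The part of these in the tumor values was not tested.

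Exercise was compared with no exercise in non-tumor and in tumor tissue of high-fat mice. None of the 9 genes passed in either tissue (edgeR), where 0.0139% and 0.0208% of all genes did. At an unadjusted p under 0.05 there was 1 gene in each, Foxo3 both times, and the share of all genes there was not counted. DESeq2 called 1 of the 9 in non-tumor tissue and 0 in tumors, where it called 107 and 79 of all 14428 genes. Foxo3 was also the 1 gene of the 9 whose groups did not overlap, against 4.81% of all genes in non-tumor tissue and 3.76% in tumors.

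Foxo3 had 106, 82.2, 45.1 and 68.2 CPM in exercised non-tumor liver, against 33.5, 42.9, 40.1 and 43.7 CPM in non-exercised non-tumor liver. In tumors it had 49.8, 57.6, 40.0 and 43.9 CPM with exercise, against 26.1, 31.2, 39.0 and 29.2 CPM without. All exercised libraries were above all non-exercised ones in each tissue, by a narrow margin at the closest pair. The log2 difference was 0.91 ± 0.22 in non-tumor tissue (SE; edgeR adjusted p = 0.174), and DESeq2 gave an adjusted p of 0.0129. Without exercised replicate 3, the library nearest the controls, it was 1.10 with an edgeR adjusted p of 0.0161. In tumors the log2 difference was 0.61 ± 0.22 (SE; edgeR adjusted p = 0.424). Foxo1, the main FOXO factor of liver and chosen here after its values were seen, differed by 0.91 ± 0.21 in non-tumor tissue and 0.66 ± 0.21 in tumors (SE; edgeR adjusted p = 0.174 and 0.383).

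Irs2 and Igfbp1, the transcripts that insulin represses, overlapped between exercised and non-exercised mice. Irs2 averaged 17.4 ± 7.95 CPM in exercised and 15.6 ± 7.10 CPM in non-exercised non-tumor liver, and Igfbp1 95.1 ± 77.1 CPM in exercised and 95.7 ± 56.6 CPM in non-exercised non-tumor liver (SD, n = 4 each). Their log2 differences were 0.15 ± 0.36 and -0.01 ± 0.60 (SE; edgeR adjusted p = 0.955 and 0.999). In tumors they were 0.02 ± 0.36 for Irs2 and 0.33 ± 0.60 for Igfbp1. Without exercised non-tumor replicate 2 the Igfbp1 value in non-tumor tissue was -0.72 with an adjusted p of 0.694. The wide errors leave sizeable differences in either direction undetected. Igfbp2 differed by 0.11 ± 0.57 in non-tumor tissue and 0.86 ± 0.58 in tumors, with edgeR adjusted p of 0.98 and 0.703. Without non-exercised tumor replicate 1 the tumor value of Igfbp2 was 1.85 with an adjusted p of 0.46.

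Insr, Pik3r1, Akt1 and Akt2 gave narrower limits, and Irs1 wider ones than these. In non-tumor tissue Insr differed by 0.15 ± 0.12, Pik3r1 by 0.26 ± 0.15, Akt1 by 0.04 ± 0.10, Akt2 by 0.07 ± 0.08 and Irs1 by -0.39 ± 0.29 on the log2 scale (SE). In tumors the differences were 0.16 ± 0.12 for Insr, 0.10 ± 0.15 for Pik3r1, -0.15 ± 0.10 for Akt1, 0.10 ± 0.08 for Akt2 and -0.14 ± 0.29 for Irs1. The test of whether exercise changed the tumor difference called 0 of the 9 genes and 0% of all genes (edgeR), with 0 of the 9 at an unadjusted p under 0.05 and 0 by DESeq2. That interaction was 0.34 ± 0.84 for Igfbp1, 0.75 ± 0.81 for Igfbp2 and -0.31 ± 0.30 for Foxo3 (SE, log2). Without exercised non-tumor replicate 2 it was 1.04 for Igfbp1, and without non-exercised tumor replicate 1 it was 1.73 for Igfbp2, neither of which passed.

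**Figure D4:**
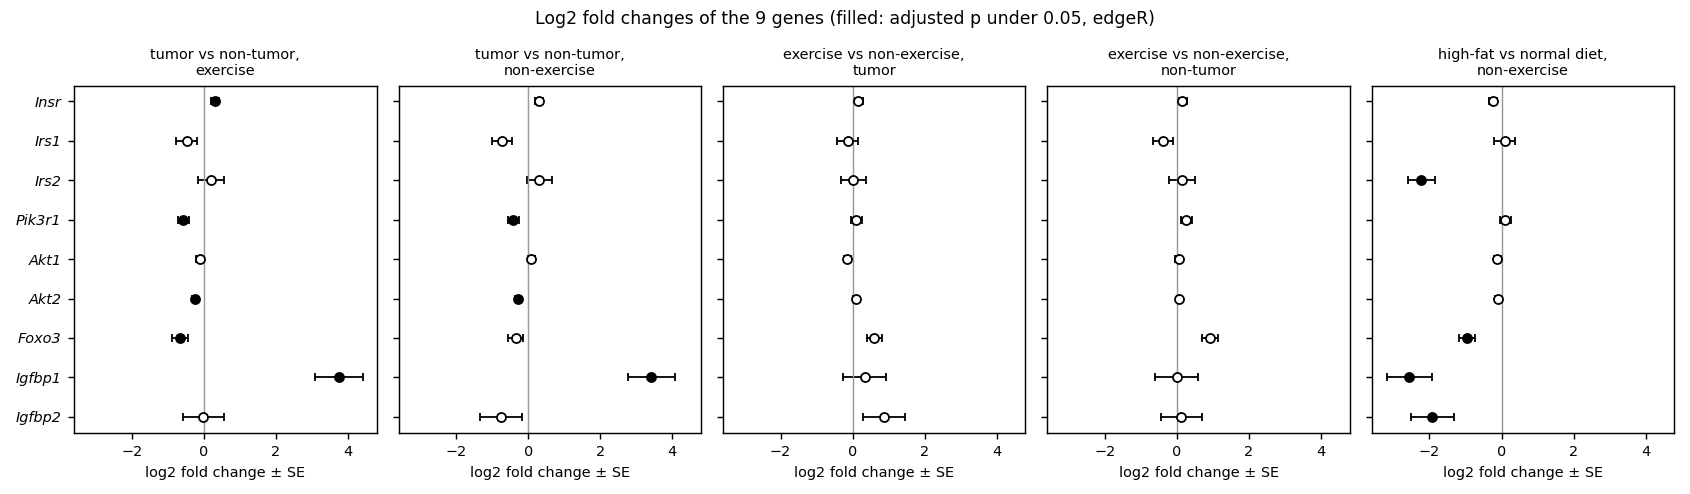
Log2 fold change ± SE of the 9 genes in 5 comparisons; filled points have an edgeR adjusted p under 0.05. Igfbp1 lies at 3.76 and 3.42 in tumors and at -2.56 with the high-fat diet, and none of the points for exercise is filled.

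Exercised high-fat mice were also set against the normal diet in non-tumor tissue, a comparison that shares its normal-diet libraries with the diet comparison. Irs2, Igfbp1 and Igfbp2 fell, and 3 of the 9 genes were called lower and 0 higher, where 14.2% of all genes were called, 7.54% higher and 6.69% lower. The groups did not overlap for 3 of the 9, against 23% of all genes. Irs2 fell by 2.08 (SE 0.37; edgeR adjusted p = 0.00171), Igfbp1 fell by 2.57 (SE 0.63; 0.0131) and Igfbp2 fell by 1.81 (SE 0.59; 0.0485) on the log2 scale. Igfbp1 stood at -3.28 without exercised replicate 2, and the call of Igfbp2 was lost when any 1 of the 8 libraries was left out (adjusted p 0.0605 to 0.132). Foxo3 differed by -0.04 ± 0.21 (SE; adjusted p = 0.93), with means of 75.5 ± 25.6 CPM in exercised high-fat liver and 77.4 ± 18.6 CPM on the normal diet (SD, n = 4 each). The matching log2 value without exercise was -0.95. Across all genes 53% of calls were higher here, and 63.2% with upper-quartile scaling. Of 8 macrophage markers 3 were called higher and 0 lower in exercised high-fat liver, with sums of 323 to 368 CPM there and 170 to 231 CPM on the normal diet. Of the hepatocyte, B cell, endothelial and cholangiocyte markers 1 each was called lower and 0 higher, and the part of these in the values was not tested.

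Other genes of the pathway were counted in 9 lists, of which 83 of 86 genes were measured; Insrr, Foxo6 and Igf2 were below the filter. On the high-fat diet 11 of the 83 rose and 7 fell, or 21.7% called, where 25.9% of all genes were called, 14% higher and 11.9% lower; as a whole the lists were near that background. Of 10 genes that insulin induces in liver 5 rose and 0 fell, among them Fasn, the fatty acid synthase, with 996 ± 211 CPM in high-fat and 274 ± 128 CPM in normal-diet livers (log2 1.86 ± 0.32 SE, edgeR adjusted p = 0.000818). Elovl6, a fatty acid elongase, rose by 0.90 ± 0.25 (log2, SE). Pnpla3, a lipid-droplet protein, rose by 4.07 ± 0.49 (log2, SE) from a very low level. It averaged 0.147 ± 0.0978 CPM in normal-diet and 2.59 ± 0.586 CPM in high-fat livers (SD, n = 4 each). Of 11 genes that FOXO1 activates and insulin represses, 0 rose and 2 fell: Pck1, the gluconeogenic carboxykinase, by 1.28 (SE 0.38; 0.0191) and Klf15 by 0.65 (SE 0.22; 0.039). Foxo1 itself fell by 0.82 (SE 0.21; 0.00956), with 33.5 ± 3.63 CPM in high-fat and 59.2 ± 9.41 CPM in normal-diet livers.

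Of 10 receptors and adaptors 1 rose and 0 fell with diet, or 10% called, where 25.9% of all genes were. Of 14 brakes on the pathway 1 rose, Enpp1, which inhibits the receptor, by 0.60 ± 0.12 (log2, SE), and 0 fell. Of 9 PI3-kinase and AKT genes Pik3cd and Pik3cg, catalytic subunits known from leukocytes, rose by 1.38 ± 0.35 and 0.92 ± 0.32, beside the macrophage markers given above, whose part was not tested. Of 12 mTOR genes 2 rose and 3 fell, with Mlst8 at 0.91 ± 0.17, Mtor at 0.45 ± 0.11 and Deptor, an mTOR inhibitor, at -0.54 ± 0.13. The list of 7 AKT substrates in metabolism also holds genes of glycogen control, such as Gys2 and Ppp1r3c, and not only direct substrates. None of its genes passed (edgeR), and 2 had an unadjusted p under 0.05. The share of all genes under that unadjusted p was not counted. Of 8 IGF system genes 1 fell, Igfbp4 by 0.51 (SE 0.13).

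In tumors 15 of the 83 genes rose and 14 fell in exercised mice, or 34.9% called, where 34.6% of all genes were. In non-exercised mice 13 rose and 14 fell, or 32.5%, where 35.8% of all genes were called, so the lists as a whole sat at the background in both arms. Of 14 brakes on the pathway 4 were called higher and 1 lower in exercised mice, and 4 higher and 0 lower in non-exercised mice. That is 35.7% and 28.6% called, near the same shares of all genes. The called brakes included Inpp4b, a phosphoinositide phosphatase, at 1.44 ± 0.33 in exercised and 1.49 ± 0.31 in non-exercised mice (log2, SE). The receptor-binding adaptor Grb10 was called higher in both arms, at 2.00 ± 0.49 in exercised and 2.27 ± 0.49 in non-exercised mice. The kinase-like AKT inhibitor Trib3 was called higher in exercised mice, at 2.69 ± 0.52. In non-exercised mice Trib3 averaged 24.5 ± 11.6 CPM in tumors and 8.46 ± 0.568 CPM in non-tumor pieces (SD, n = 4 each). The interaction test called 0 of the 83 genes. Genes on the list of AKT substrates in metabolism, which includes genes of glycogen control, were called lower only. They were 4 of 7 in exercised and 3 of 7 in non-exercised mice. In those arms the log2 changes ± SE were -0.84 ± 0.22 and -0.78 ± 0.22 for Pde3b, -0.96 ± 0.27 and -0.99 ± 0.27 for Ppp1r3c, and -0.28 ± 0.08 and -0.35 ± 0.08 for Gsk3a.

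Receptors and adaptors were called higher for 2 and lower for 2 of 10 in exercised mice, and higher for 3 and lower for 0 in non-exercised mice, or 40% and 30% called, where 34.6% and 35.8% of all genes were. Shc1, which links receptors to the RAS pathway, stood at 0.55 ± 0.12 in exercised and 0.60 ± 0.12 in non-exercised mice (log2, SE). In the IGF system, 2 of 8 rose and 2 fell in exercised mice, and 1 rose and 2 fell in non-exercised mice. Igf2r, which clears IGF2, rose by 0.61 ± 0.15 in exercised and 0.69 ± 0.15 in non-exercised mice, and Igfals, which stabilises circulating IGF complexes, fell by 1.83 in exercised (SE 0.50) and fell by 1.67 in non-exercised mice (SE 0.50). Igf1 in non-exercised mice had 99.9 ± 110 CPM in tumors and 363 ± 57.4 CPM in non-tumor pieces (SD, n = 4 each; edgeR adjusted p = 0.0283). In exercised mice Igf1 was lower in tumors as well, with 114 ± 43.1 CPM against 414 ± 165 CPM in non-tumor pieces (SD, n = 4 each).

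Of 11 genes that FOXO1 activates and insulin represses, 1 was called higher and 2 lower in tumors of exercised mice, and 1 higher and 3 lower in those of non-exercised mice. The 27.3% and 36.4% called compare with 34.6% and 35.8% of all genes. Pck1 fell by 1.11 (SE 0.38) in exercised and fell by 1.61 (SE 0.38) in non-exercised tumors, and Klf15 fell by 0.79 in exercised (SE 0.22) and fell by 0.97 in non-exercised tumors (SE 0.23). Apoc3, an apolipoprotein, was the gene called higher in exercised mice, at 0.47 ± 0.16 (log2, SE). Insulin-induced genes were called 3 higher and 1 lower of 10 in exercised mice, and 2 higher and 2 lower in non-exercised mice; Pnpla3 rose by 4.12 ± 0.35 in exercised and 2.88 ± 0.31 in non-exercised tumors, and Acly, the citrate lyase, by 1.19 ± 0.31 and 1.18 ± 0.31 (log2, SE). With exercise 0 of the 83 passed in either tissue (edgeR), where 0.0139% of all genes passed in non-tumor tissue and 0.0208% in tumors. An unadjusted p under 0.05 was seen for 15 in non-tumor tissue and 13 in tumors. The share of all genes under that unadjusted p was not counted, so these counts show no response particular to the lists.

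**Figure D5:**
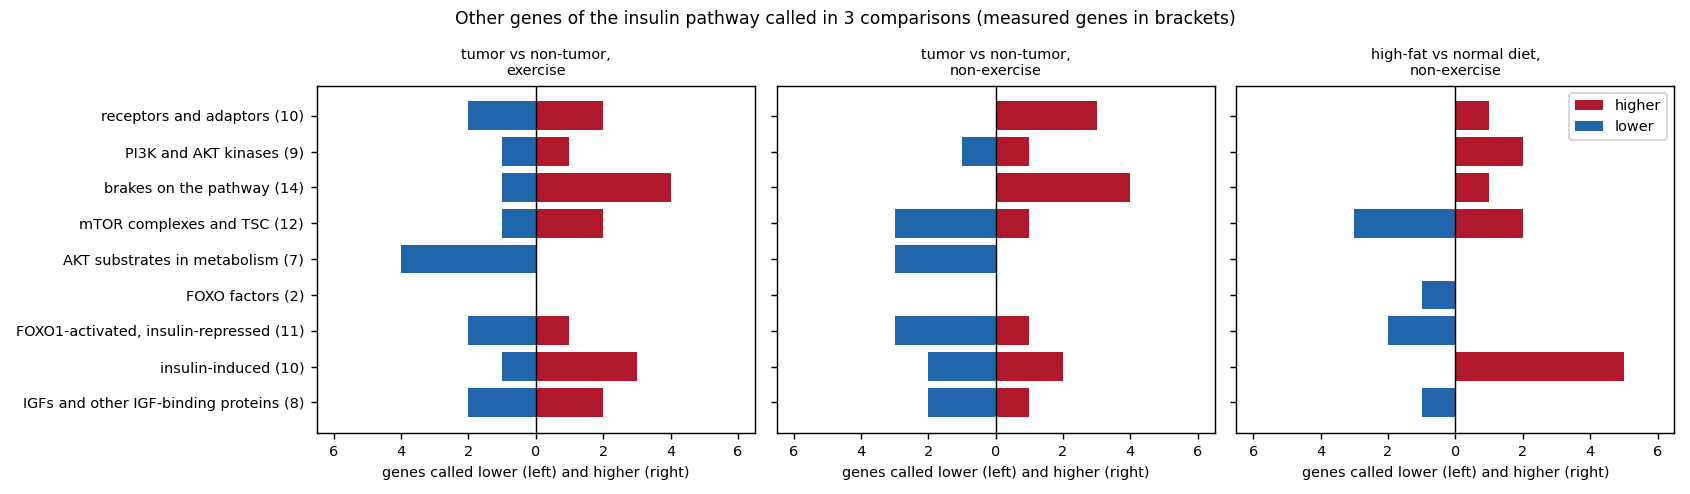
Number of genes in each pathway list called lower (left, blue) and higher (right, red) at an edgeR adjusted p under 0.05 in 3 comparisons, with the genes measured in brackets. Of 10 insulin-induced genes 5 were called higher with the high-fat diet. Genes listed as AKT substrates in metabolism, which include genes of glycogen control, were called only lower in tumors, 4 and 3 of 7.

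Igfbp1 and Igfbp2 each lie beside another binding protein gene. Igfbp1 ends 3539 bases from Igfbp3, and Igfbp2 5457 bases from Igfbp5, both neighbours on the other strand. Igfbp3 averaged 40.0 CPM in tumors and 25.4 CPM in non-tumor pieces of exercised mice (log2 0.65 ± 0.32 SE, edgeR adjusted p = 0.12), and its diet difference was 0.78 ± 0.32 (adjusted p = 0.0824). On the high-fat diet the sign of Igfbp3 was opposite to that of Igfbp1, but Igfbp3 did not pass. Igfbp5 differed by -1.03 ± 0.58 with diet (adjusted p = 0.198).

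Genes with the most similar pattern over the 20 libraries were ranked by Pearson r of log2 CPM among 12663 genes, as a description, since the libraries share groups and mice. For Igfbp1 they were Ccl9 (r = 0.933), Clic4 (0.926) and Maml3 (0.924). For Irs2 they were Pald1 (0.921), Ptbp3 (0.91) and Fbxo38 (0.91), and for Foxo3 Upp2 (0.965), Pim3 (0.952) and Slc7a2 (0.93). No gene of the 9 was among the 3 closest to another. Insr was nearest to F2 (0.915), Irs1 to Slc25a25 (0.921), Akt2 to Pus10 (0.925), Igfbp2 to Ndufa1 (0.86), Pik3r1 to Foxp2 (0.859) and Akt1 to B9d2 (0.777).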

How the data were processed

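Deposited values were raw counts. They came from featureCounts 2.0.5 on exons, grouped by gene, with GENCODE vM27 and strand setting 2, per the file headers. Trim Galore 0.6.10, STAR 2.7.11a, Subread 2.0.5 and the build GRCm39 are named in the submitters' processing notes. Of 55359 identifiers 52083 had a symbol; 135 share one. At the shallowest depth 1 CPM is 16.5 counts.

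From the counts, filterByExpr (minimum count 10, total 15) kept 14428 genes, and libraries were scaled by TMM. edgeR 4.0.16 (R 4.3.3; quasi-likelihood, robust) was fitted to 5 group means over 20 libraries, with 15 residual degrees of freedom, two-sided tests and Benjamini-Hochberg adjustment over all genes at 0.05. CPM uses scaled library sizes, except in the sums of cell markers and the limit for Ins1 and Ins2, which use total counts. The log2 CPM has a prior count of 2. SE is the log2 fold change over the root of F. The procedure was tested on simulated data. For diet it recovered 37.3% of 1.5-fold, 58.2% of 2-fold and 89.4% of 4-fold changes, and 1.6% of calls were false. For exercise in tumors it recovered 41.8%, 71.6% and 87.9%, and 3.6% of calls were false.

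The 9 genes and the lists were chosen with earlier results of these data known. The naming rule took the 9 genes, up to 3 called genes of smallest p per list and comparison, the 3 most similar genes and the binding-protein neighbours. Some genes that this rule takes are not reported here. Pairing of tumor and non-tumor pieces in an arm comes from the titles' mouse numbers; deviations of same-numbered pieces correlated at 0.0754 to 0.441 in exercised and -0.0835 to 0.213 in non-exercised mice. Nothing says that other same-numbered samples are related, so p-values reflect only the spread among these samples. Within groups, libraries correlated at 0.934 to 0.99 and none looked deposited more than once. No batch is given. Alternatives were RLE and upper-quartile scaling, DESeq2 1.42.0, limma-voom 3.58.1 with a mouse block, other filters, only the groups compared, a replicate block, and leaving out each library.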

Additional observations from a re-analysis of the deposited data

How the results depend on the processing

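Of 576 log2 values of the 9 genes with 1 library left out, 489 kept their direction and side of the threshold, 32 lost a call, 6 gained one and 49 changed sign. Of 504 under other settings, 462 kept both, 18 lost a call, 10 gained one and 14 changed sign. No value that changed sign was called before or after. The number of the 9 genes called for exercise in non-tumor liver was 1 with DESeq2, which called 107 of all 14428 genes there. In tumors of exercised mice the number of the 9 called was 2 without the low-count filter and 2 when only the groups compared were fitted, against 5. Over all genes the calls there were 4033 of 29517 and 3432 of 13614, against 4986 of 14428. In tumors of non-exercised mice 5 of the 9 were called with limma-voom and a random mouse block and 1 without the low-count filter, against 3. Over all genes the calls there were 6024 of 14428 and 4272 of 29517, against 5164 of 14428. With 1 library left out the counts were 3 to 4 for diet, 0 to 1 for exercise in non-tumor liver, 3 to 4 for tumor in exercised mice, 1 to 4 for tumor in non-exercised mice, and 2 in each case for exercised high-fat against normal diet. The count of 3 in exercised tumors came without non-tumor replicate 1 or 4 or tumor replicate 1 or 4. Over all genes 3804 of 14657, 4003 of 14656, 3731 of 14621 and 4445 of 14633 were called there, in that order. The count of 1 in non-exercised tumors came without tumor replicate 4, where 4640 of 14618 genes were called. With RLE the non-exercised tumor calls were 2 higher and 1 lower, against 1 and 2. Without the filter Insr, Akt2 and Foxo3 lost their calls in exercised tumors (adjusted p 0.11, 0.0508 and 0.0569, edgeR) and Pik3r1 and Akt2 in non-exercised tumors (0.0835 and 0.0522). With only the groups compared Insr, Akt2 and Foxo3 lost theirs in exercised tumors (0.0639, 0.108 and 0.0779). Pik3r1 in non-exercised tumors was also lost with RLE (0.0615) and DESeq2 (0.0514), and Igfbp2 in exercised high-fat against normal diet with upper-quartile scaling (0.0535), limma-voom (0.139) and no filter (0.134). The cause was not tested.

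With the replicate block the counts were 4 for diet, 4 for tumor in exercised mice and 3 for tumor in non-exercised mice. They were 2 for exercised high-fat against normal diet and 0 for exercise in either tissue and the interaction. Over all genes the block called 3879 of 14428 for diet, and 4725 and 5111 of 14333 for tumor in exercised and non-exercised mice. For exercised high-fat against normal diet it called 2144 of 14428. The labels tie no other same-numbered samples; deviations of same-numbered tumors of exercised and non-exercised mice correlated at 0.0281 to 0.573, with own number best for 2 of 4, a hint from the data and not the design. Across mice the block ended the call of Igfbp2 against the normal diet (adjusted p = 0.0507, edgeR), and beyond the tumor values given above it changed no other call. For diet, Igfbp2 also lost its call with limma-voom (0.0756) and without the filter (0.0669). At this depth counting error is small for all 9 genes, and the spread between libraries sets the limits.

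The sign changes were as follows, on the log2 scale. Igfbp1 for exercise in non-tumor liver was 0.0099 with RLE, 0.010 with DESeq2, 0.029 without the filter and 0.013 with only the groups compared. Insr in the interaction was -0.015 with RLE and -0.015 with DESeq2, -0.023 without the filter and -0.0028 with the filter of 1 CPM; Akt2 there was -0.0036 without the filter. Irs2 for exercise in tumors was -0.015 with upper-quartile scaling and -0.030 with limma-voom. Akt2 in exercised high-fat against normal diet was 0.0033 with upper-quartile scaling. Igfbp2 in tumors of exercised mice was 0.025 with limma-voom and 0.022 with the replicate block. With 1 library left out, ranges that crossed 0 were, for exercise in non-tumor liver, -0.12 to 0.36 for Irs2, -0.72 to 0.30 for Igfbp1 and -0.068 to 0.42 for Igfbp2. For exercise in tumors they were -0.39 to 0.044 for Irs1 and -0.26 to 0.19 for Irs2, and for tumor in exercised mice -0.083 to 0.46 for Irs2 and -0.18 to 0.12 for Igfbp2. In the interaction they were -0.070 to 0.11 for Insr, -0.0066 to 0.53 for Irs1, -0.42 to 0.12 for Irs2 and -0.038 to 0.10 for Akt2. For exercised high-fat against normal diet they were -0.091 to 0.0058 for Akt2 and -0.25 to 0.15 for Foxo3, and for diet -0.033 to 0.20 for Pik3r1.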
